A study of Homo sapiens with 18 samples.

Results

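Expression of 10 genes of hyaluronan metabolism was followed in HCT116 cells at low and high density. They were taken by symbol from a table of 38055 genes, and all 10 were found: UGDH, which makes the precursor, the synthases HAS1, HAS2 and HAS3, the degrading enzymes and their relatives HYAL1, HYAL2, HYAL3, CEMIP and CEMIP2, and the receptor CD44. HCT116 is an epithelial line from a human colorectal carcinoma, and every culture used here was wild type (WT), with no treatment given in the labels. Cells had grown for 3 days, to 50% confluency, or for 5 days, to 250% confluency, with fresh medium daily from day 2. RNA from whole cells was depleted of ribosomal RNA and sequenced in 3 libraries per day, labelled as biological replicates. The design holds density and time in culture together, so their parts cannot be told apart, and it covers 1 cell line. Day 7 whole transcriptome values and the small RNA libraries were not analysed here.

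Hyaluronan is a long, unbranched sugar chain of the extracellular matrix, built from alternating glucuronic acid and N-acetylglucosamine. Synthases in the plasma membrane draw on UDP-sugars in the cytosol and push the growing chain out of the cell. Hyaluronidases and CEMIP proteins cut it, lysosomal enzymes finish its breakdown, and CD44 binds it at the cell surface and is tied to the actin cortex by ezrin, radixin and moesin. In carcinomas this matrix and CD44 have been studied for their part in adhesion and migration.

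The deposited values are read counts per gene divided by 1 factor per library, and 1 read was worth between 0.618 and 1.42 units. The libraries held 27470978 to 56689369 reads on genes. Day 3 replicate 3 was the shallowest library and had the highest sum of values, 38942641 against 34008467 to 35043456 in the other 5. Of 7 colon epithelial markers 6 were tested and 5 of them were higher on day 5, beside 29.3% of all genes tested. The summed level of the 7 was 37111 to 55188 on day 3 and 100343 to 101432 on day 5. EPCAM kept a mean of 7227 ± 257 on day 3 against 7236 ± 173 at the later time (SD, n = 3 each), and VIL1 did not exceed 5.18 in any library. The summed level of the 4 leukocyte markers was 6.15 to 11.8 on day 3 and 17.2 to 20.6 on day 5, and that of the 2 endothelial markers found was 8.51 to 21.0 and 20.7 to 39.7. The 5 fibroblast markers found summed to 526 to 605 and 1124 to 1200, nearly all of it COL1A1, which rose 2.17-fold, and DCN was at 0 in 5 of the 6 libraries. The part of these markers in the results was not tested.

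Of the 10 genes, 8 were expressed well enough to be tested, which required a value of 10 or higher in 3 or more of the 6 libraries, and these 8 exceeded 10 in every library. At high density 6 of the 8 were higher (limma, Benjamini-Hochberg adjusted p under 0.05 over all genes tested), 1 was lower and 1 did not pass. CEMIP, HAS3, HYAL1, CD44 and HYAL3 rose at least 2-fold, CEMIP2 rose by less, UGDH fell slightly and HYAL2 did not pass. Much of the transcriptome differed between the days: of 20129 genes tested, 56.9% passed, 29.3% as higher and 27.6% as lower on day 5, and 10.2% were both called and at least 2-fold higher. The median log2 fold change was 1.07 over the 8 tested genes and 0.01 over all tested genes. HYAL3 lay at the 2-fold line, at 2.00-fold, and CD44 was the next above it, at 2.19-fold. In values per library, fewer cells of a type and less RNA per cell cannot be told apart.

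**Figure D1:**
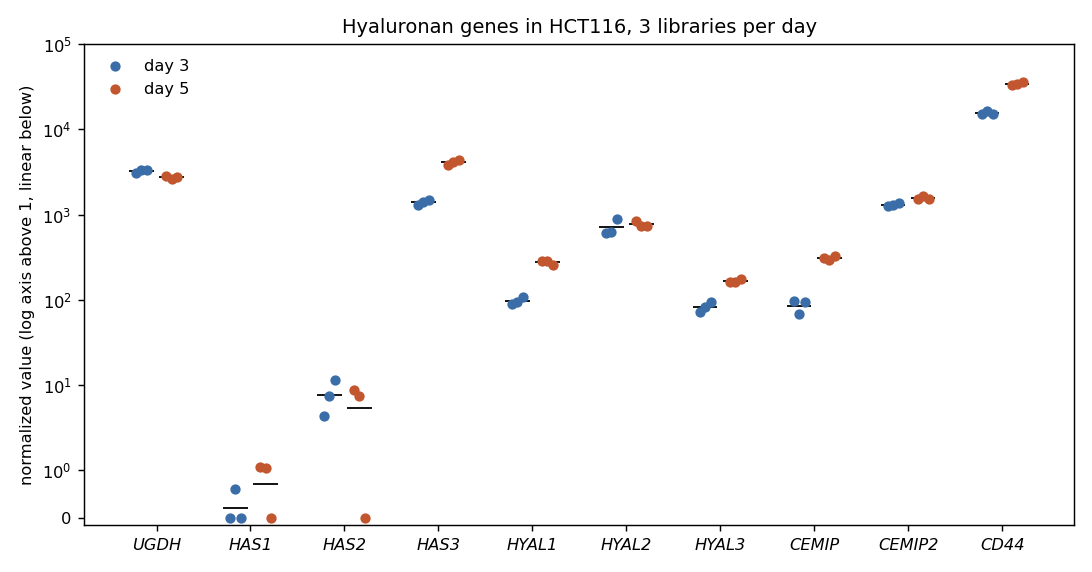
Normalized value of each of the 10 genes in each of the 6 libraries, on a log axis above 1 and a linear one below, with a bar at the mean of the 3 libraries of a day. For CEMIP, HAS3, HYAL1, CD44, HYAL3 and CEMIP2 all day 5 points lie above all day 3 points, for UGDH they lie below, and HAS1 and HAS2 stay under 12. How many of all tested genes separate in this way was not counted.

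UGDH oxidizes UDP-glucose to UDP-glucuronic acid, 1 of the 2 sugars of the chain. The gene lies on chromosome 4 of hg38 from 39498755 to 39528311 on the minus strand. Its values were 3039, 3357 and 3319 on day 3 and 2844, 2634 and 2757 on day 5. The 3 day 5 libraries were below the 3 day 3 libraries, but by little: 0.848-fold, a log2 fold change of -0.24 (standard error 0.08, limma adjusted p = 0.0463). In limma the call rested on single libraries and on the scale. It was lost without day 3 replicate 2 or 3 or any 1 of the day 5 libraries (limma adjusted p from 0.0771 to 0.145) and kept without day 3 replicate 1, and on library totals the log2 fold change was -0.17 (limma adjusted p = 0.115). With no filter on low values the adjusted p from limma was 0.191. On recovered reads the call was kept (edgeR adjusted p = 0.00366, DESeq2 adjusted p = 0.00911). In all, 4 of 12 alternative settings kept it. UGDH-AS1, an antisense RNA that shares 513 exon bases with UGDH on the other strand, missed the threshold with a log2 difference of 0.42 (limma adjusted p = 0.118), and passed without day 3 replicate 1 (0.62, limma adjusted p = 0.0185). Counting by the authors is stated to be strand-specific.

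Among the 3 synthases, which all join both sugars into hyaluronan, nearly every read came from HAS3. HAS3 (chromosome 16, 69105653 to 69118719, plus strand) went from 1282, 1411 and 1466 on day 3 to 3848, 4107 and 4347 on day 5. The lowest day 5 library was far above the highest day 3 library, and the mean rose 2.96-fold, from 1386 ± 94.4 to 4101 ± 250 (SD, n = 3 each). CHTF8 shares 365 exon bases with HAS3 on the other strand and did not pass (limma adjusted p = 0.0591). The log2 fold change of HAS3 was 1.56 (standard error 0.09, limma adjusted p = 0.000183), and 3.13% of all tested genes had a larger one. Over the 12 alternatives that gave it a value it stayed between 1.51 and 1.63.

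HAS2 (chromosome 8, 121612116 to 121641440, minus strand) is the synthase most studied in development and mesenchymal cells. It had 5, 12 and 8 reads in the day 3 libraries and 8, 7 and 0 in the day 5 libraries, or values of 4.39, 7.42 and 11.3 against 8.68, 7.50 and 0. The days overlapped, and in day 5 replicate 3 a count of 0 allows a value of up to 3.11. HAS2 was under the filter on low values. Without that filter its log2 fold change was -0.92 (limma adjusted p = 0.549). HAS2-AS1, its antisense RNA, was as scarce, at 4.95 to 11.3 on day 3 and 2.17 to 11.4 on day 5.

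HAS1 (chromosome 19, 51713112 to 51723991, minus strand) had 1 read in 1 day 3 library and 1 read in each of 2 day 5 libraries, and 0 in the other 3, so no difference was detectable at this depth, where 3 reads, the limit that a count of 0 allows, stand for values of 1.85 to 4.25. HAS3 made up 99.2% to 99.7% of the reads of the 3 synthases on day 3 and 99.8% to 100% on day 5. HAS2 held 25 of 4802 such reads on day 3 and 15 of 11595 on day 5, and HAS1 held 1 and 2.

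The HYAL genes encode or are related to the endoglycosidases that cut hyaluronan. HYAL2 is anchored at the cell surface, HYAL1 works in lysosomes, and the activity of HYAL3 is less clear. All 3 lie on the minus strand of chromosome 3 within 29952 bases, in the order HYAL3 (50292831 to 50299405), HYAL1 (50299890 to 50312381) and HYAL2 (50317790 to 50322782). HYAL1 and HYAL3 passed the test and HYAL2 did not, and the difference between the genes was not itself tested.

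HYAL1 had values of 89.6, 93.3 and 109 on day 3 and 283, 288 and 254 on day 5. The days were well apart, and the rise was 2.82-fold, a log2 fold change of 1.49 (standard error 0.11, limma adjusted p = 0.000235). HYAL3 had 72.9, 82.8 and 93.6 on day 3 and 163, 162 and 175 on day 5. It rose 2.00-fold, a log2 fold change of 1.00 (standard error 0.11, limma adjusted p = 0.000727). HYAL3 overlaps NAA80, an acetyltransferase gene on the same strand, with which it shares 232 exon bases, 11.8% of its own, and NAA80 itself rose by 1.34 on the log2 scale (limma adjusted p = 0.000343). Reads in the shared bases can be split between the 2 genes by the counting, so the value and the rise of HYAL3 are uncertain. The share of exon bases does not bound the share of reads. NAA80 had the higher mean, 130 on day 3 and 329 on day 5, against 83.1 and 166 for HYAL3. How many HYAL3 reads fell in the shared bases was not tested. IFRD2, which reaches 43 exon bases into HYAL3 from the other side, did not pass (log2 fold change -0.09, limma adjusted p = 0.634).

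HYAL2 was the most abundant of the 3. Its values were 610, 629 and 877 on day 3 and 835, 727 and 736 on day 5, and the days overlapped because day 3 replicate 3 was the highest library of all. The log2 fold change was 0.14, with a 95% confidence interval from -0.26 to 0.53 (limma adjusted p = 0.502). Without day 3 replicate 3 it was 0.30 and passed (limma adjusted p = 0.0415). TUSC2, on the same strand, shares 509 exon bases with HYAL2, 11.5% of those of HYAL2, and its log2 fold change was -0.37 (limma adjusted p = 0.0631). Within a library, HYAL2 held 78.1% to 81.2% of the reads of the 3 genes on day 3 and 61.8% to 65.2% on day 5. The share of HYAL1 went from between 10.1% and 11.6% to between 21.8% and 24.5%, and that of HYAL3 from between 8.66% and 10.3% to between 12.7% and 15.02%. These shares do not depend on the scale between libraries, and none of the 3 overlapped between the days.

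**Figure D2:**
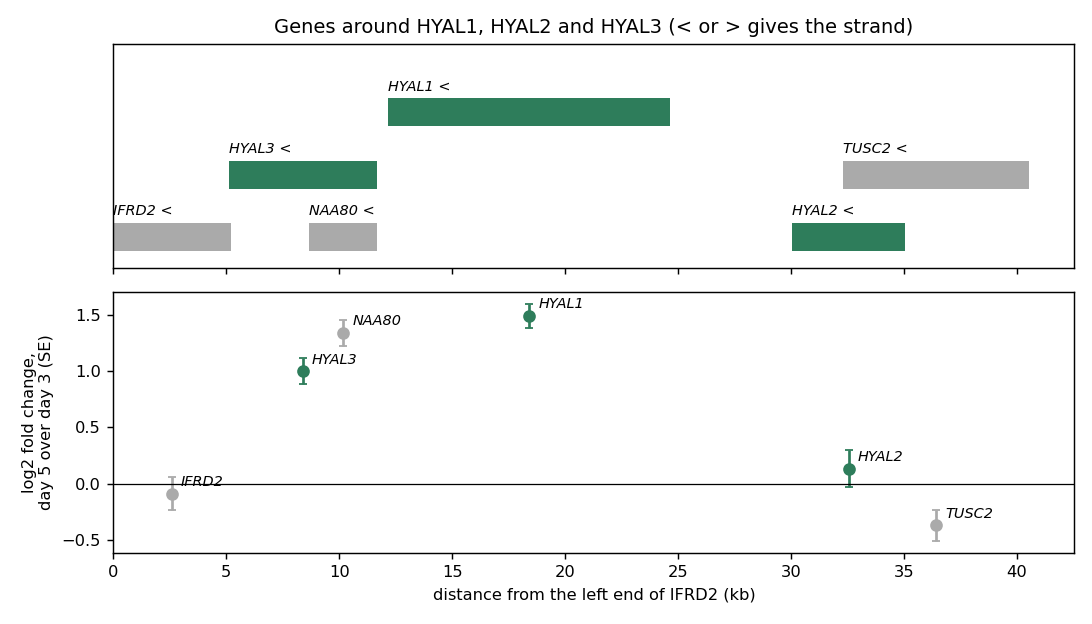
Map of the genes around HYAL1, HYAL2 and HYAL3 by distance from the left end of IFRD2 in kb (top) and the log2 fold change of each on day 5 with its standard error (bottom), with the HYAL genes in green. HYAL3, NAA80 and HYAL1 stand between 1.00 and 1.49, and IFRD2, HYAL2 and TUSC2 between -0.37 and 0.14.

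CEMIP and CEMIP2 are paralogs. CEMIP takes part in the uptake and depolymerization of hyaluronan, and CEMIP2 is a transmembrane relative for which hyaluronidase activity has been described. CEMIP (chromosome 15, 80779343 to 80951776, plus strand) was scarce on day 3, at 95.7, 67.4 and 93.6, and stood at 313, 295 and 323 on day 5. None of the day 5 libraries reached down to day 3. The mean rose 3.63-fold, from 85.6 ± 15.8 to 310 ± 14.4 (SD, n = 3 each), a log2 fold change of 1.86 (standard error 0.15, limma adjusted p = 0.000304). Of all tested genes 1.62% had a larger log2 fold change. On day 3 this rested on 66 to 109 reads per library.

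CEMIP2 (chromosome 9, 71683366 to 71816690, minus strand) was more abundant and moved less, from 1265, 1280 and 1351 to 1536, 1670 and 1502. The days did not overlap, and the rise was 1.21-fold, a log2 fold change of 0.27 (standard error 0.08, limma adjusted p = 0.0289). The call was lost without day 3 replicate 1 or 2 or day 5 replicate 1 or 2 (limma adjusted p from 0.0648 to 0.103) and kept without either replicate 3. With no filter on low values it was lost as well (limma adjusted p = 0.145). On recovered reads it was kept (edgeR adjusted p = 0.00392, DESeq2 adjusted p = 0.00557), and 6 of 12 alternative settings kept it. Of the reads of both genes, CEMIP held 284 of 4748 on day 3 and 876 of 5301 on day 5, and its share per library, at most 7.03% on day 3 and at most 17.7% on day 5, did not overlap between the days.

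The bases before the RefSeq start sites of these genes were searched for 2 cores of the hypoxia response element, ACGTG and GCGTG, and for the TEAD site GGAATG, on both strands and over 250 bases. The motifs were picked by hand with the changes known. RefSeq (GRCh38.p14) starts were used for 9 of the 10 genes, with 2 starts for HYAL3, and HAS2 was not searched. A core of the hypoxia response element was found before a start of 6 of the 9, HAS3, HYAL1, HYAL2, HYAL3, CD44 and CEMIP, and in 43.2% of all 35116 promoters of the same length. The 6 of 9 counts genes, over 10 starts, while the 43.2% counts single promoters. All 250 bases lie inside the annotated gene for HAS3, CEMIP2, UGDH, HYAL1, CD44 and 1 of the 2 starts of HYAL3. For CD44 they all lie in annotated exons. ACGTG alone was in 18.5% of all promoters, GCGTG in 32.2% and GGAATG in 11.9%. GGAATG was found before UGDH, HYAL2 and HYAL3, each time within annotated exon bases or running into them. For HYAL3 it was before 1 of the 2 starts, where all 250 bases lie in an exon of NAA80. The cores of HAS3 lay 66 and 7 bases before the start, the first within CACGTG, which reads ACGTG on both strands, and that of CEMIP lay 124 bases before. A match is not a binding site, and no binding was measured here. HYAL2, which did not pass the test, also held a core, and a link between cores and changes was not tested. Shown are the abundant synthase and one near 0, and the scarcer and the more abundant CEMIP gene, 5′ to 3′ along the gene and up to the start or the first annotated exon base, with the cores in capitals: HAS3 (chr16:69107290-69107539, plus strand) with HAS1 (chr19:51723992-51724241, minus strand), and CEMIP (chr15:80779120-80779342, plus strand) with CEMIP2 (chr9:71768514-71768763, minus strand).
HAS3: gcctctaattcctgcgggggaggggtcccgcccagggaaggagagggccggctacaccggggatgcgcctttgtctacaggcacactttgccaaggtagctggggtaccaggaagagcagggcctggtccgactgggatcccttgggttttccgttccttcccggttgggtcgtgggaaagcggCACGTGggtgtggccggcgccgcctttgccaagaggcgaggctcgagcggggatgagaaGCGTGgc
HAS1: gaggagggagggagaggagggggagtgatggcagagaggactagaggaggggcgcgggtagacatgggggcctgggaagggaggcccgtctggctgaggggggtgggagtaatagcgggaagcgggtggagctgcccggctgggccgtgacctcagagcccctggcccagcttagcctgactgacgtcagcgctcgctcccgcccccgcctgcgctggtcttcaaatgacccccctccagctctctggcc
CEMIP: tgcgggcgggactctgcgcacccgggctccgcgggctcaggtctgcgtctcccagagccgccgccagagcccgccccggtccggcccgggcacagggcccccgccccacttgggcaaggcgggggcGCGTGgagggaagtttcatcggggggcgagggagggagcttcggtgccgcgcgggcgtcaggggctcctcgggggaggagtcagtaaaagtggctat
CEMIP2: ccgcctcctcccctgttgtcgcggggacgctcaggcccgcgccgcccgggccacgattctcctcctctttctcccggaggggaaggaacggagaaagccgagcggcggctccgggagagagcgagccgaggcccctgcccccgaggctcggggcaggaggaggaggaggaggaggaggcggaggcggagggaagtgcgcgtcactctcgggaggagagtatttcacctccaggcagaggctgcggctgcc

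CD44, the main cell surface receptor of hyaluronan and a marker used for colorectal cancer cells with stem cell traits, was the most abundant of the 10. Its locus is chromosome 11, 35138882 to 35232402, plus strand. Its values were 15288, 16388 and 15284 on day 3 and 33098, 34309 and 35416 on day 5. Both days were tight and far apart, and the mean rose 2.19-fold, from 15654 ± 636 to 34274 ± 1159 (SD, n = 3 each). The log2 fold change was 1.13 (standard error 0.08, limma adjusted p = 0.000222) and was 1.11 or higher under every one of its 12 alternatives. CD44 is spliced into standard and variant forms, which a value per gene does not separate. Its upstream and antisense RNAs, CD44-DT and CD44-AS1, did not exceed 16.1 in any library.

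**Figure D3:**
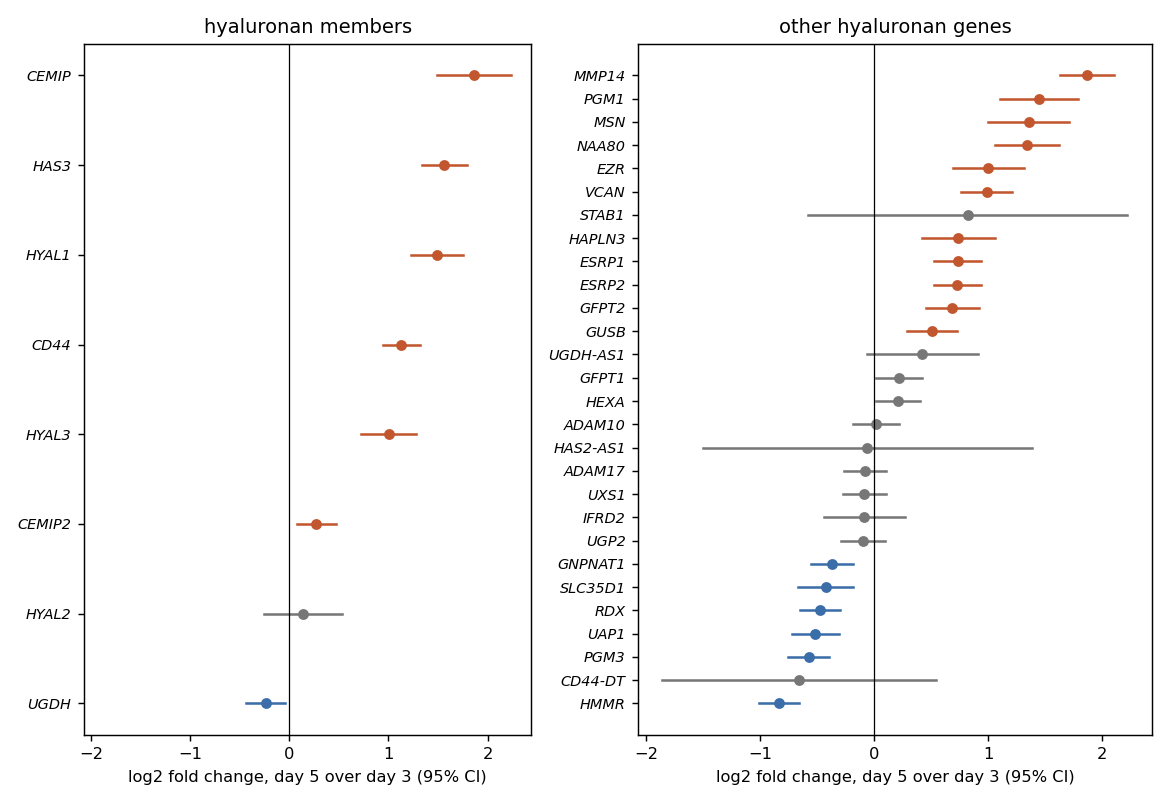
Log2 fold change of day 5 over day 3 with its 95% confidence interval from limma, for the 8 tested hyaluronan genes (left) and the other tested genes of the pathway, less 1 that is not reported here (right), red where higher, blue where lower and grey where the test was not passed. CEMIP, HAS3, HYAL1, CD44 and HYAL3 lie at 1.00 or above on the left, while the genes on the right spread from HMMR at -0.84 to MMP14 at 1.86.

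Levels of different genes were compared per kb of exon, using the union of the exons of each gene. On day 3 the order was CD44 at 1567 ± 63.7 per kb, UGDH at 805 ± 43.2, HAS3 at 267 ± 18.2, HYAL2 at 160 ± 33.7, CEMIP2 at 140 ± 4.96, HYAL3 at 42.2 ± 5.26, HYAL1 at 31.6 ± 3.38, CEMIP at 11.2 ± 2.07 and HAS2 at 1.82 ± 0.822 (SD, n = 3), with HAS1 last. On this length HYAL2 and CEMIP2 overlapped in their libraries and the other neighbours did not. On day 5 HAS3, at 740 to 836 per kb, stood above UGDH, at 654 to 707 per kb, with no overlap. With the length of the MANE Select transcript instead, HAS3 was at 918 to 1037 and UGDH at 867 to 937, so those ranges then overlapped. On day 3 that length put HYAL2 (324 to 466) before HAS3 (306 to 350) and HYAL1 (44.1 to 53.8) before HYAL3 (38.8 to 49.8), each pair with overlap, and HYAL2 no longer overlapped CEMIP2 (206 to 220). On day 5 HYAL1 and HYAL3 overlapped per kb of exon union, at 82.2 to 93.5 and 82.3 to 89.0, but not per kb of MANE Select transcript, at 125 to 142 and 86.2 to 93.2. HYAL2 and CEMIP2 likewise overlapped on day 5 only with the exon union, and stood at 386 to 444 and 244 to 272 per kb of MANE Select transcript. CD44 remained first, at 3430 ± 116 per kb (SD, n = 3) on day 5, on either length.

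**Figure D4:**
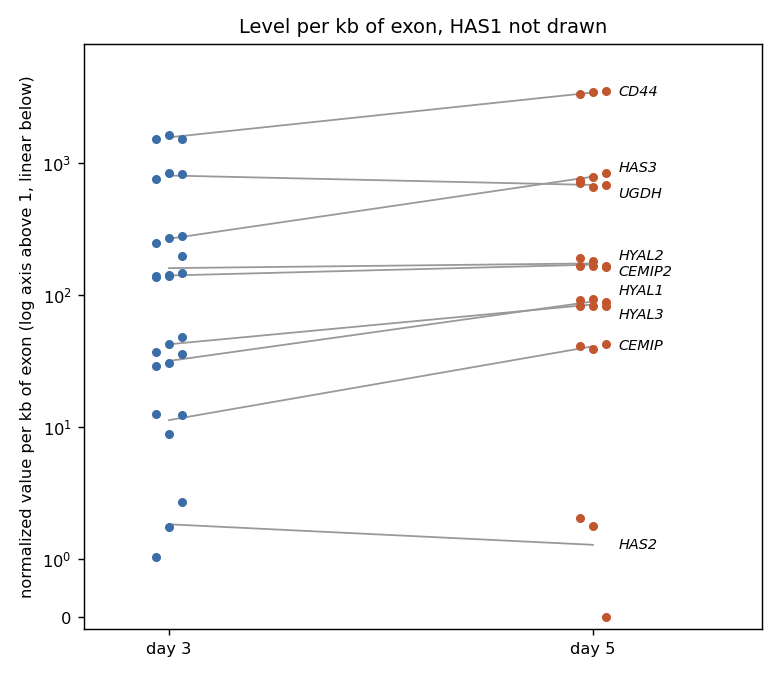
Normalized value per kb of exon in each library on day 3 and day 5, with a line between the means of the days, on a log axis above 1 and a linear one below. HAS3 goes from below UGDH on day 3 to above it on day 5, and HAS1, at or under 0.484 per kb in all libraries, is not drawn.

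The rest of the pathway was taken from lists of 49 other genes, 6 of them antisense or overlapping RNAs, of which 45 had a row in the table and 29 were tested. Of these, 11 were higher, 6 lower and 12 did not pass, with a median log2 fold change of 0.21, against 0.01 over all genes tested. The 17 called of 29 are close to the 56.9% called over all genes.

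The list for UDP-sugar supply had 9 tested genes, of which 2 were higher and 4 lower, with a median log2 fold change of -0.10. Over all genes 56.9% were called, so 6 of 9 is near that share. PGM1, which feeds glucose phosphate towards UDP-glucose, rose 2.70-fold, from 935 ± 156 to 2526 ± 176 (SD, n = 3 each, limma adjusted p = 0.000472). The hexosamine branch, which makes UDP-N-acetylglucosamine, was mixed. GNPNAT1, PGM3 and UAP1, its later enzymes, fell to 0.773-, 0.670- and 0.698-fold (limma adjusted p = 0.00683, 0.00114 and 0.003). GFPT2 rose 1.60-fold and GFPT1, which begins the same branch, missed the threshold with a log2 difference of 0.21 (limma adjusted p = 0.0655). SLC35D1, a UDP-sugar transporter, fell to 0.741-fold as well. UGP2, which makes UDP-glucose, did not pass (log2 fold change -0.10, limma adjusted p = 0.328). GFPT2, GFPT1, SLC35D1 and UGP2 were named after their values were seen.

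Of the lysosomal exoglycosidases that finish hyaluronan breakdown, GUSB rose 1.42-fold (limma adjusted p = 0.00427), and HEXA did not pass (log2 fold change 0.21, limma adjusted p = 0.0645). Of the other receptors, 2 were tested. HMMR, which binds hyaluronan and also sits on the mitotic spindle, fell from 4898 ± 144 to 2740 ± 80.5 (SD, n = 3 each), to 0.559-fold (limma adjusted p = 0.000352). Of 7 proliferation genes looked up beside it, TOP2A, CCNB1, AURKA and PCNA fell, with log2 fold changes from -1.37 to -0.68, and MKI67, PLK1 and MCM2 rose, by 0.52 to 0.63. STAB1, the other receptor tested, was near the filter and did not pass. LYVE1, STAB2 and LAYN stayed under 10 in every library.

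Hyaluronan-binding matrix and plasma proteins were mostly scarce, with 2 of the 14 found being tested. VCAN, which encodes versican, a large proteoglycan that binds hyaluronan, rose 1.98-fold, from 9268 ± 638 to 18343 ± 1053 (SD, n = 3 each, limma adjusted p = 0.00042). HAPLN3, of the link protein family that fastens proteoglycans to hyaluronan, rose 1.67-fold (limma adjusted p = 0.00427).

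The list of CD44 linkers, sheddases and splicing factors had 8 tested genes, of which 5 were higher and 1 lower, with a median log2 fold change of 0.73, beside 29.3% higher and 27.6% lower over all genes tested. Ezrin (EZR) rose 1.98-fold, from 42343 ± 6092 to 84010 ± 4760 (SD, n = 3 each, limma adjusted p = 0.00114), and moesin (MSN) rose 2.53-fold (limma adjusted p = 0.000638). Radixin (RDX) fell to 0.719-fold (limma adjusted p = 0.00218). Of the reads of the 3 linkers, RDX held 13.6% to 17.2% on day 3 and 5.80% to 6.04% on day 5. ESRP1, a splicing factor that favours CD44 variant exons, rose 1.66-fold (limma adjusted p = 0.000788), as did its paralog ESRP2, at 1.65-fold. MMP14, a membrane protease that can cleave CD44, rose 3.65-fold (limma adjusted p = 0.000156); ESRP2 and MMP14 were named after their values were seen. The sheddases ADAM10 and ADAM17 did not pass (log2 fold changes 0.01 and -0.08, limma adjusted p = 0.907 and 0.378).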

How the data were processed

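Whole transcriptome libraries of HCT116 cells, 3 each from day 3 and day 5, were analysed. Groups and replicate numbers came from the sample labels. The authors' methods describe UMI adapters, trimming, and strand-specific mapping to ENSEMBL v99 gene models on hg38 in CLC Genomics Workbench, with TMM named for normalization; whether UMIs were collapsed is not given in the sources used here. FastQC 0.11.8 and MultiQC 1.7 are named in the submitters' processing notes. The deposited signal is a normalized value per gene and library. Whole reads were recovered for 100% of values (within 0.01 read). The table also holds fold changes and p-values of the authors' own comparison, which were not used. Values were tested as log2(value + 1) with limma 3.58.1 in R 4.3.3, with Benjamini-Hochberg adjustment over all 20129 genes tested; this scale understates changes of low genes. No count test was used as the main test, since the values are normalized. Alternatives were edgeR 4.0.16 and DESeq2 1.42.0 on recovered reads, scaling by library totals, testing all genes, adding 0.1 instead of 1, blocking on the replicate number, leaving out each library, and a 2-fold minimum. In simulated data, 60.9% of 197 genes changed 2-fold were recovered among 19727 genes, with 8 false calls. The simulation changed a far smaller share of genes than the 56.9% called here, so its rates do not give those of the main test. Loci and lengths came from GENCODE release 44 on hg38 and promoters from RefSeq GRCh38.p14; genes were matched by symbol or Ensembl identifier, and 4 of the 49 other pathway genes had no match. The values of 1 gene of these lists are counted but not reported here. All 10 genes are named, and of each other list the called genes with the highest mean values, up to 4; genes named without passing the test, GFPT2, SLC35D1, ESRP2 and MMP14 were chosen after their values were seen. The genes and lists were chosen with earlier results of these data known. Labels call the replicates biological, but do not say whether they came from separate days, so p-values measure the spread between these libraries. Intervals and floors from reads cover counting error only. Figures were drawn with matplotlib 3.10.9 in Python 3.11.15.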

Additional observations from a re-analysis of the deposited data

How the results depend on the processing

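For the 8 tested hyaluronan genes, 12 alternatives each gave 96 values, of which 81 kept their direction and their side of the threshold, 14 kept the direction and lost the call, 1 gained it (HYAL2) and 0 reversed. HAS3, HYAL1, HYAL3, CEMIP and CD44 passed in all 12, and the lost calls were those of CEMIP2 and UGDH, which limits what 3 libraries per day say about changes of this size. Of 7 called, 5 were also at least 2-fold changed; the log2 fold change of HYAL3 ranged from 0.91 to 1.09. Without single libraries 5 to 7 of the hyaluronan genes, 17 to 18 of the other pathway genes and 9780 to 11300 of all genes passed. A 2-fold minimum left 3589 of 11450 genes overall and 4 of the 17 other pathway genes, all 4 higher. Without a filter on low values UGDH and CEMIP2 had limma adjusted p of 0.191 and 0.145, and GNPNAT1 and SLC35D1 of 0.0564 and 0.0611, while GFPT1 and HEXA passed with edgeR. On recovered reads edgeR passed 12280 and DESeq2 11131 of all genes. Scaling to library totals shifted the transcriptome median by 0.07 (log2). With the replicate number as a block, 5 hyaluronan genes passed, all higher, with 17 of the other pathway genes and 10533 of all genes. Same-numbered libraries deviated together with correlations of -0.01, 0.03 and 0.02, and differently numbered ones with -0.05 to 0.03. These values gave no sign of pairing by number, but with 3 libraries per day they cannot exclude it. Among genes that did not pass, the log2 fold change of ADAM10 turned to -0.0028 with edgeR and ranged from -0.037 to 0.051 without single libraries, that of IFRD2 ranged from -0.20 to 0.033, and that of HAS2-AS1 ranged from -0.28 to 0.58 and was 0.23 with edgeR and 0.17 with DESeq2; the cause was not tested. Precision for HAS1 and HAS2 is limited by counts of 12 reads or fewer.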
